A study of Mus musculus with 3 samples.

Results

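Paired immunoglobulin-like receptors were followed across the immune cells of UVB-irradiated mouse skin through 7 genes: Pira2, Pirb, Lilrb4a, Lilra5, Lair1, Pilra and Sirpa. All 7 had a row in the count matrices, which held 32285 gene rows in all. The set was picked for a higher Pira2 level in irradiated wild-type macrophages, so that contrast is given as a description. Single-cell 3′ libraries had been made from dorsal skin of 8-week-old C57Bl/6 males in telogen, after enrichment of CD45+ cells on magnetic beads. WT_Ctrl was wild-type skin without UVB. WT_UV was wild-type skin after 3 UVB exposures given on every other day. RP_UV was skin with the same 3 exposures from a mouse of genotype RP, which carries Rosa26-rtTA and Tre-Ptgs2, so that doxycycline switches on rat Ptgs2 (Cox-2) throughout the body rather than in a chosen cell type. Both irradiated skins were collected on day 5 of the timeline, per the study. Whether the wild-type animals also received doxycycline is not given in the sources used here. Each group was 1 library, so no test was possible and no difference had a replicate check.

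Paired receptors are families in which inhibitory and activating members have closely related extracellular domains. The inhibitory members (Pirb, Lilrb4a, Lair1, Pilra, Sirpa) carry cytoplasmic ITIM motifs that recruit the phosphatases Ptpn6 and Ptpn11. The activating members (Pira2 and, outside the set, Pilrb1, Pilrb2 and the Sirpb1 genes) have short tails and signal through the ITAM adaptors Fcer1g or Tyrobp. In macrophages, dendritic cells and neutrophils the balance of such receptors sets how readily the cell responds to integrin, Fc receptor and cytokine signals.

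Pira2 and Pirb lie on the minus strand of chromosome 7 (GRCm38.p6, RefSeq), Pira2 at chr7:3836808-3845104 and Pirb at chr7:3712505-3720382, with 116 kb between them. Lilra6 (chr7:3908277-3915571), Lair1 (chr7:4007073-4073567) and Lilra5 (chr7:4237643-4243690) are on the same chromosome. Lilrb4a is at chr10:51490898-51496613, 4.57 kb from its relative Lilr4b, Pilra at chr5:137821952-137836278 and Sirpa at chr2:129591042-129632228. RefSeq gives a promoter window of 300 bases for 5 of the 7 genes, not for Sirpa or Lilrb4a. The DNA just upstream of Pira2, Pirb and Lilra6 is shown because these 3 neighbours share it almost base for base, while their transcripts differed between the libraries by unlike amounts, as given further on. Each stretch has 180 bases, is written 5′ to 3′ on the minus strand and ends before the first base of every RefSeq transcript of its gene. Capitals mark GAGGAAGT, a match to the binding motif of PU.1, the factor that specifies myeloid cells. The stretches are chr7:3845120-3845299 for Pira2, chr7:3720423-3720602 for Pirb and chr7:3915572-3915751 for Lilra6.
Pira2: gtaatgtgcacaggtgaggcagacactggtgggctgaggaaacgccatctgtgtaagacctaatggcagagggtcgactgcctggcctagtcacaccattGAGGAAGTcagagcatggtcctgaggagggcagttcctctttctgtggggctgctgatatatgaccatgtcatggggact
Pirb: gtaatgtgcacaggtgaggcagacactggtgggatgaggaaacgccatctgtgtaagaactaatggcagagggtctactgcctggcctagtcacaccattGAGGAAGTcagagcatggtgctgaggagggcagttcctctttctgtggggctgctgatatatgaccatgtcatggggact
Lilra6: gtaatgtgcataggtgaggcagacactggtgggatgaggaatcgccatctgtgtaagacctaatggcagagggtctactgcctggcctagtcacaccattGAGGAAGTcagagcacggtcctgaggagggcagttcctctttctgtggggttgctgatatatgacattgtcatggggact
Over these 180 bases Pira2 differed from Pirb at 4 positions and Lilra6 differed from Pirb at 8. Over the whole promoter windows Pira2 was 97.1% identical to Pirb in 272 aligned bases and 96.3% identical to Lilra6 in 298. The window of Pira1, another activating gene of the cluster, was 100% identical to that of Pira2 in 272 aligned bases. The capitalised match stood once in each of the 4 windows. On either strand, 3.2% of all 32851 promoter windows of that length held it. None of the 4 windows held AP-1 (TGANTCA) or C/EBP (TTGCNNAA) letters, which 7.81% and 10.8% of all windows hold on either strand. The Pilra window was 99.2% identical to that of Pilrb2 in 246 aligned bases and 98.4% identical to that of Pilrb1. A match of letters is a description of the DNA and shows no binding.

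Such likeness also touches the counts. Among windows of 91 bases in the last 1000 bases of each transcript (GENCODE vM39), 100% of those of Pira2 also occurred in Pira1 or the gene model Gm71981. Pira1 has no row in the matrices, so what is called Pira2 below cannot be told apart from Pira1. For Lilrb4a 84.8% of such windows occurred in Gm49339 or Lilrb4b (Lilr4b in the matrices). The share found in any other gene was 12.9% for Pirb, 3.76% for Lair1 and 0.288% for Pilra. No window of Lilra5 or Sirpa was shared. Levels of Pira2 and Lilrb4a are therefore uncertain between near-identical copies.

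The libraries held 34985549 UMIs in 5977 barcodes for WT_Ctrl, 82722013 in 6149 for WT_UV and 37689836 in 7240 for RP_UV, and 5309, 5225 and 6070 cells were kept. Pairs of libraries shared between 8 and 11 barcodes. WT_UV was the deepest library, at a median of 10557 UMIs per cell against 4246 and 3774, and per the labels it ran on another flow cell than the other two. A difference of WT_UV from either other library therefore cannot be told apart from one between sequencing runs. The mouse Ptgs2 row was at 14.4, 117 and 486 CPM over all kept cells, highest in RP_UV. CPM are UMIs of the gene per 1 M UMIs of all genes. The transgene is the rat gene and the counts were made on mouse build mm10, so this row need not measure it. Neutrophils also express the gene, per the study. Cells named as neutrophils below numbered 15, 56 and 278, and the part of cell makeup in this level was not tested. The row is therefore not read as a check of the RP_UV label. Cell classes were named from marker genes and are to be read as X-like. Macrophage-like cells, in which macrophages and monocytes were held together, numbered 1811, 2222 and 2170, and all 9 macrophage markers had UMIs there in each library. Their summed level was 18837, 15818 and 23509 CPM, and that of the 6 T cell markers was 5.54, 16.4 and 3.66. The 5 monocyte markers summed to 569, 739 and 215 and the 5 dendritic cell markers to 413, 306 and 114, both lowest in RP_UV, and the 6 keratinocyte markers to 146, 119 and 168. The part of these differences in the receptor levels was not tested. Levels are given as CPM of the UMIs summed over a class, in the order WT_Ctrl, WT_UV, RP_UV, with exact Poisson 95% intervals. Folds carry exact conditional intervals, and all intervals cover counting error only. A sum over a class cannot separate more RNA per cell from more cells with the gene, so shares of cells are also given.

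In macrophage-like cells, 3 of the 7 receptors were at least 2-fold higher in WT_UV than in WT_Ctrl (Pira2, Pilra and Lilrb4a) and 1 was at least 2-fold lower (Lilra5). The Lilra5 call was lost in 3 of 12 other settings, at 0.529 times WT_Ctrl with the mean over cells, 0.521 with 4000 genes as the limit in every library and 0.520 without cluster 4. Over all 5725 genes that averaged at least 20 CPM over both libraries, 2.93% were at least 2-fold higher and 0.926% lower, 3.86% in either direction. Pilra and Lilra5 did not reach that mean, and the set was picked on this contrast, so nothing is read from these counts. Of the 5 that reached it, the median log2 fold was 0.50, beside 0.04 over all genes. Between RP_UV and WT_UV only Lair1 passed 2-fold, and it was lower. Lilra5 lay just short, at 0.509 times WT_UV (0.256 to 0.936), and passed in 6 of 12 other settings. In 5 of these the count was 2, and with cells thinned to 2000 UMIs Lair1 itself was at 0.512. There 1.17% of 5707 genes were at least 2-fold higher and 2.82% lower, 4% in either direction. The median log2 fold of the 5 receptors was -0.43, beside 0.01 over all genes. RP_UV and WT_Ctrl shared a flow cell but differed in both UVB and genotype, and possibly in doxycycline. Between them, Pira2 and Pilra were at least 2-fold higher in RP_UV and Lair1 and Lilra5 lower. In that contrast 4.1% of 5682 genes were higher and 3.38% lower, 7.48% in either direction. The median log2 fold of the 5 receptors there was 0.25, beside 0.08 over all genes. The contrasts share libraries, so their folds are not independent of each other.

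**Figure D1:**
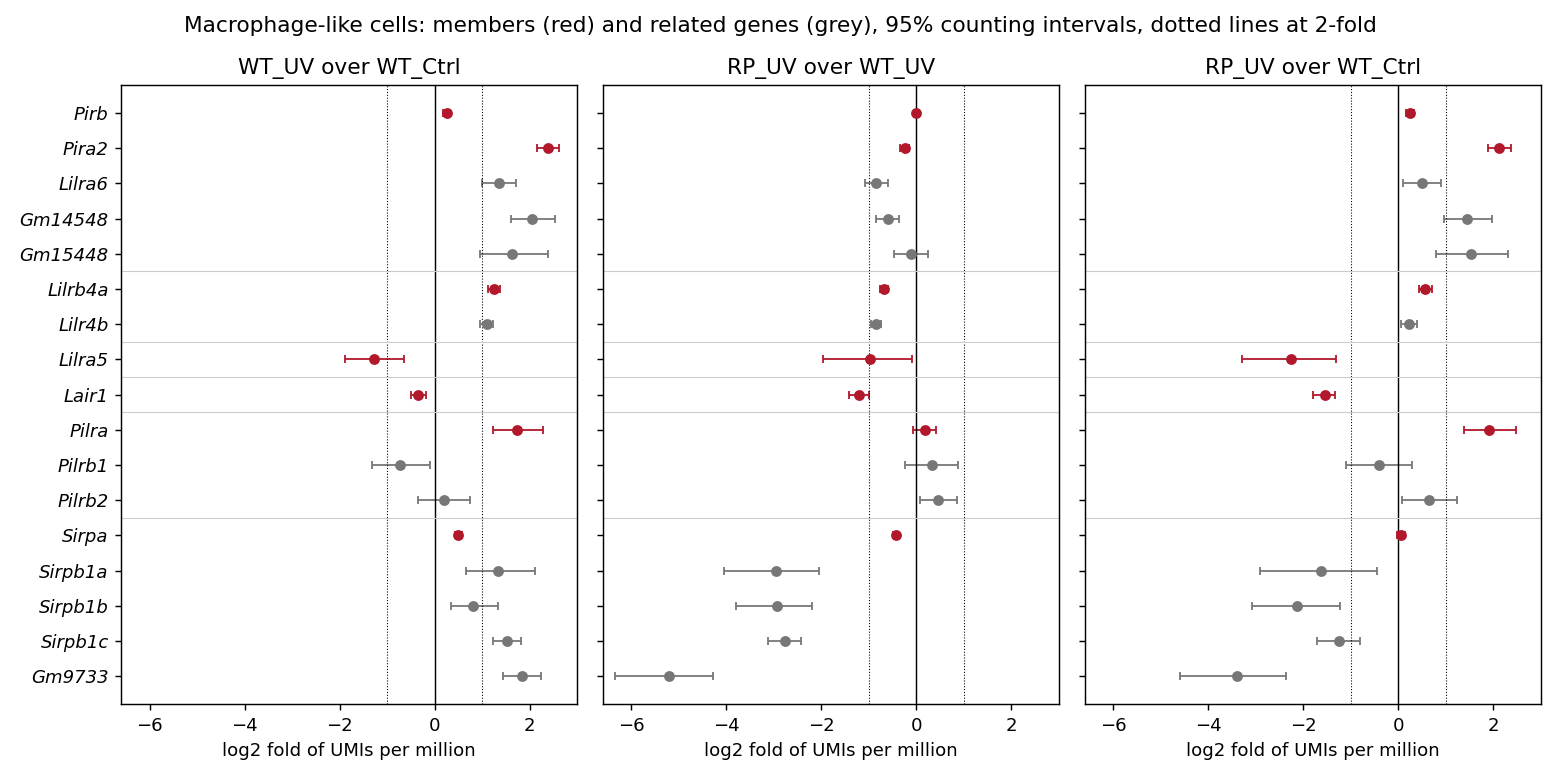
Log2 fold of CPM in macrophage-like cells (x axis) for the 7 receptors in red and related genes in grey (y axis), in the 3 contrasts, with 95% counting intervals and dotted lines at 2-fold. Pira2 stood farthest to the right in WT_UV over WT_Ctrl at a log2 fold of 2.38, Lair1 was the only red point left of the lower dotted line with its estimate in RP_UV over WT_UV at -1.20, and the Sirpb1 genes and Gm9733 lay far to the left there.

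Pira2 encodes an activating receptor that needs the adaptor Fcer1g to reach the surface. In macrophage-like cells it was counted at 22.7 (19.3 to 26.5), 118 (114 to 122) and 99.8 CPM (94.1 to 106), from 160, 3234 and 1144 UMIs. Both irradiated libraries thus lay well above the control, with intervals that did not overlap. The fold of WT_UV over WT_Ctrl was 5.2 (4.44 to 6.14) and that of RP_UV over WT_Ctrl 4.39 (3.72 to 5.22), the contrast within a flow cell. RP_UV stood at 0.844 times WT_UV (0.789 to 0.904). In shares of cells, after each cell had been thinned to 2000 UMIs, a Pira2 UMI was found in 4.4%, 18.7% and 17.1% of macrophage-like cells. Thinning left out 267, 51 and 186 shallower cells, and the unthinned shares were 7.62%, 49.6% and 31.7%. T cell-like cells, which should lack the gene, had a thinned share of 0%, 0.837% and 0%, at median depths of 2309, 5354 and 1605 UMIs against 3821, 11224 and 4662 in macrophage-like cells. In T cell-like cells, 0 of 203 cells in WT_Ctrl allows a share of up to 1.48%, and 0 of 16 in RP_UV up to 18.8%. Keratinocyte-like cells had 0.0943%, 0.25% and 0.123%. The macrophage-like shares were above those of keratinocyte-like cells in each library, and above those of T cell-like cells in WT_Ctrl and WT_UV, while 16 cells were too few to tell in RP_UV.

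Pirb encodes the inhibitory partner, which binds MHC class I and Angptl proteins. Its level in macrophage-like cells was 269 (257 to 281), 320.4 (314 to 327) and 321 CPM (310.5 to 331). The irradiated libraries lay above the control and did not differ from each other beyond counting error, with folds of 1.19 (1.13 to 1.25) for WT_UV over WT_Ctrl and 1 (0.963 to 1.04) for RP_UV over WT_UV. Thinned shares of cells with a Pirb UMI were 39.8%, 45.8% and 44.3%. Cells with UMIs of both genes made up 1.81%, 8.52% and 8.62% of thinned macrophage-like cells. Of the UMIs of the pair, Pira2 contributed 7.79% (Wilson interval 6.71 to 9.03), 26.9% (26.2 to 27.7) and 23.7% (22.5 to 24.9). These are shares of 3′ tags, not scaled by transcript length. The larger share of Pira2 in the irradiated libraries was seen with a nearly level Pirb.

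The other activating genes of the Pira cluster had lower levels. Lilra6 was at 10.6, 27.1 and 15.1 CPM in macrophage-like cells, 2.54 times (2 to 3.27) higher in WT_UV than in WT_Ctrl and 0.557 times (0.469 to 0.658) the WT_UV level in RP_UV. Gm14548, a gene now named Pira12, was at 5.96, 24.8 and 16.3, with a fold of WT_UV over WT_Ctrl of 4.15 (3.04 to 5.82). Gm15448, now named Pira13, was at 2.7, 8.37 and 7.76, with a fold of 3.1 (1.94 to 5.25). All 4 activating genes with a row in the matrices were therefore higher in WT_UV than in WT_Ctrl by at least the lower bound of 1.94. Lilra6, whose upstream DNA is shown with that of Pira2, had a smaller fold than Pira2, and the intervals of these folds did not overlap. For Gm14548, 73.3% of 3′ windows occurred in another gene, most often Pira2, for Gm15448 22.6% and for Lilra6 11.2%. The rows may therefore share reads, which was not tested, and Pira2 is the gene the set was picked on.

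Nearly all macrophage-like cells lay in 4 clusters, with 2, 1 and 18 cells in a further one led by cell cycle genes. Clusters were made without the 7 receptors and without genes whose symbols start with their family names. Cluster 0 was led by Ccl8 and cluster 1 by Lyve1, a marker of resident skin macrophages. Cluster 2 had Ccr2 and Trem2, and cluster 4 the monocyte genes Ly6c2 and Plac8. In library order, cluster 0 held 794, 759 and 719 cells, cluster 1 held 642, 528 and 787, cluster 2 held 214, 616 and 599, and cluster 4 held 159, 318 and 47. On a finer split the libraries separated: sub-cluster 0.0 held 673 cells of WT_Ctrl and 16 of RP_UV, 0.1 held 3 and 636, and 2.0 held 416 cells of RP_UV and 17 of WT_UV. A class value thus mixes cell states that differ between libraries.

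Pira2 was higher in WT_UV than in WT_Ctrl within each of the 4 clusters. RP_UV was above WT_Ctrl beyond counting error in clusters 0, 1 and 2, and in cluster 4 its fold of 1.56 had an interval of 0.947 to 2.5. In cluster 0 it was at 20.3, 82.9 and 86.7 CPM, with a WT_UV over WT_Ctrl fold of 4.08 (3.18 to 5.31). In cluster 1 it was at 7.38, 22.5 and 45.6. That was the lowest of the clusters, and the only one where RP_UV lay above WT_UV beyond counting error, at 2.02-fold (1.59 to 2.59). In cluster 2 it was at 24.5, 225 and 175, the largest fold of WT_UV over WT_Ctrl at 9.15 (5.84 to 15.2), and in cluster 4 at 74.6, 156 and 116. Among all genes tested, 1.72%, 0.957%, 6.2% and 5.88% were at least 2-fold higher in WT_UV than in WT_Ctrl in clusters 0, 1, 2 and 4. For RP_UV over WT_UV the same share was 1.61%, 2.05%, 1.8% and 5.97%, and for RP_UV over WT_Ctrl 6.19%, 3.32%, 7.09% and 10.1%. In the control, Pira2 was therefore highest at the monocyte end of the class, whereas in WT_UV cluster 2 held the highest level. In RP_UV the intervals of cluster 2 (160.3 to 189.9) and cluster 4 (76.5 to 169) overlapped. Among sub-clusters with at least 50 cells of a library, Pira2 reached 282 (263 to 303) in sub-cluster 2.2 of WT_UV. The lowest value in WT_UV was 16.1 (11.6 to 21.6) in sub-cluster 1.2. Pirb was much flatter, with clusters from 222 to 294 in the control library, from 232 to 344 in WT_UV, and for RP_UV from 258 up to 355, and its WT_UV over WT_Ctrl fold was between 1.04 and 1.29.

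**Figure D2:**
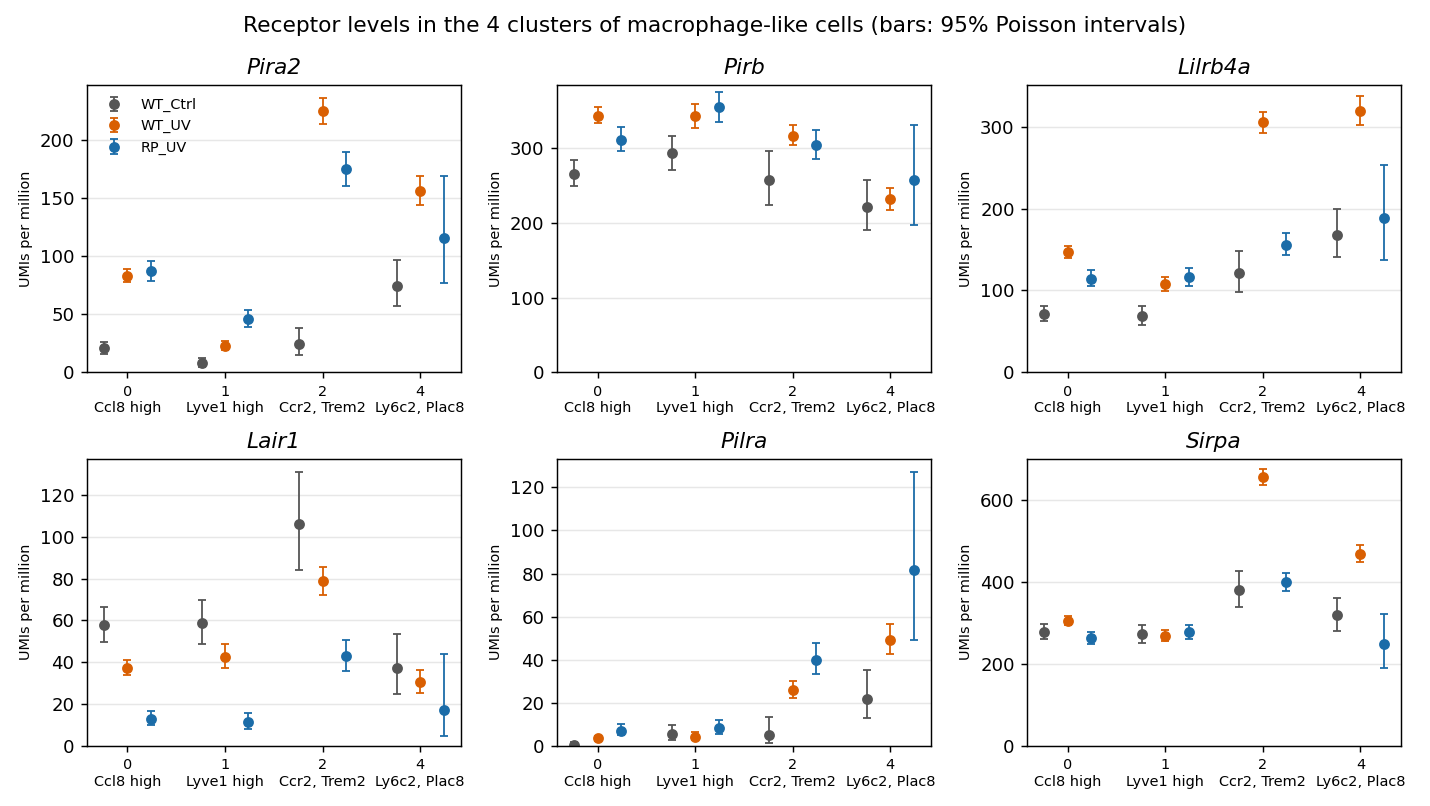
CPM (y axes, each from 0) of 6 receptors in the 4 clusters of macrophage-like cells (x axis), 1 point per library with 95% Poisson intervals. Pira2 in cluster 2 stood at 24.5 in WT_Ctrl against 225 in WT_UV and 175 in RP_UV, and Lair1 was lowest in RP_UV in every cluster, with an interval in cluster 4 that overlapped the others.

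Lilrb4a encodes gp49B, an inhibitory receptor of myeloid and mast cells that binds fibronectin and integrins. In macrophage-like cells it was at 86.6 (79.9 to 93.8), 205 (200.1 to 211) and 128 CPM (122 to 135). It was highest in WT_UV and intermediate in RP_UV, with no overlap of intervals. The folds were 2.37 (2.18 to 2.58) for WT_UV over WT_Ctrl, 0.624 (0.589 to 0.661) for RP_UV over WT_UV and 1.48 (1.35 to 1.63) for RP_UV over WT_Ctrl. Thinned shares of cells with a Lilrb4a UMI followed the same order, at 13.8%, 30% and 22.2%. In WT_UV its level was 306 in cluster 2 and 320.0 in cluster 4, against 147 in cluster 0 and 108 in cluster 1. Cluster 2 also held the widest gap between the irradiated libraries, where RP_UV was at 156, or 0.511 times WT_UV (0.462 to 0.564). Its neighbour Lilr4b, whose product gp49A lacks the inhibitory motif, was at 70.4, 149.9 and 82.8 in macrophage-like cells. The share of Lilr4b in the UMIs of both genes was 44.8% (41.9 to 47.8), 42.2% (41.2 to 43.2) and 39.3% (37.3 to 41.2). That was a far narrower range than that of Pira2 with Pirb. As 84.8% of Lilrb4a 3′ windows occurred in Lilr4b or Gm49339, the rows may share reads, and the part of this in the narrow range was not tested.

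Pilra encodes an inhibitory receptor for O-glycosylated ligands such as Pianp, and in mice is known from neutrophils. It was rare in macrophage-like cells, at 4.83 (3.34 to 6.75), 16.1 (14.6 to 17.7) and 18.2 CPM (15.8 to 20.9), from 34, 440 and 209 UMIs. Both irradiated libraries were above the control, by 3.33-fold (2.35 to 4.87) in WT_UV and 3.78-fold (2.62 to 5.6) in RP_UV. Over the 12 other settings these folds ranged from 2.03 with classes from marker UMIs to 6.36 without integration for WT_UV, and from 2.09 with cluster 2 left out to 8.37 without integration for RP_UV. In cluster 1 neither differed from the control beyond counting error, at 0.747 (0.354 to 1.66) and 1.49 (0.74 to 3.22). Over the whole class the irradiated libraries did not differ from each other beyond counting error, with a fold of 1.13 (0.957 to 1.34). Within the clusters the order was plainer, with RP_UV at 2.04, 2, 1.55 and 1.66 times WT_UV in clusters 0, 1, 2 and 4, though in cluster 4 the interval of 0.981 to 2.67 spanned 1. Cluster 4 had the highest Pilra level in each library, at 21.9, 49.1 and 81.6, and held 318 cells of WT_UV but 47 of RP_UV. With cluster 2 left out of the class RP_UV was at 0.783 times WT_UV, so the class fold depends on which clusters are summed. The activating partners differed from it, since Pilrb1 was at 4.83, 2.92 and 3.66 and Pilrb2 at 5.11, 5.81 and 8.02. Together they made up 67.3% (57.8 to 75.6), 35.2% (31.7 to 38.9) and 39.1% (34.1 to 44.3) of the UMIs of the family. For Pilr the share of activating genes was thus lower after UVB, whereas for Pira2 with Pirb it was higher.

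Sirpa encodes the inhibitory receptor for Cd47, the signal by which healthy cells avoid being engulfed. It had the highest level of the set in macrophage-like cells of WT_UV, at 292 (279.7 to 305), 413 (405 to 420.4) and 306 CPM (296 to 316) over the libraries. WT_UV was above both others, by 1.41-fold (1.35 to 1.48) over WT_Ctrl, and RP_UV was at 0.741 times WT_UV (0.713 to 0.77). RP_UV and WT_Ctrl did not differ beyond counting error, at 1.05-fold (0.991 to 1.11). In clusters 2 and 4 Sirpa was at 657 and 469.7 in WT_UV against 381 and 319 in WT_Ctrl, or 1.72-fold (1.53 to 1.95) and 1.47-fold (1.29 to 1.69) higher. In cluster 0 the fold was 1.1 (1.02 to 1.18), from 306 against 279. In cluster 1 it was level, at 273, 269 and 277. Cd47 itself was at 480.4, 536 and 517 in macrophage-like cells.

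The activating Sirpb1 genes, which signal through Tyrobp, had a pattern of their own. Sirpb1c was at 14.9 (12.2 to 18), 42.8 (40.4 to 45.3) and 6.28 CPM (4.91 to 7.91) in macrophage-like cells. It was 2.87 times (2.35 to 3.54) higher in WT_UV than in WT_Ctrl, and RP_UV was at 0.147 times WT_UV (0.114 to 0.186). Sirpb1a and Sirpb1b had the same order of libraries, with RP_UV at 0.128 and 0.131 times WT_UV. Gm9733, now named Sirpd, was at 8.23, 29.2 and 0.785, and RP_UV was at 0.0269 times WT_UV (0.0122 to 0.0513), from 9 against 799 UMIs. The 3 Sirpb1 genes together made up 7.38% (6.37 to 8.54), 12.6% (12.1 to 13.2) and 2.69% (2.21 to 3.27) of their UMIs with Sirpa. In dendritic-like cells that share was 9.1%, 23% and 29.3%, so RP_UV had the lowest share in macrophage-like cells and the highest in dendritic-like cells. About 29.4% to 34.3% of 3′ windows of these 3 genes occur in another gene.

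Lair1 encodes an inhibitory receptor for collagens and complement C1q. It was the only one of the 7 that passed 2-fold between RP_UV and WT_UV in macrophage-like cells, at 60.8 (55.1 to 66.8), 47.8 (45.3 to 50.5) and 20.8 CPM (18.2 to 23.6), from 428, 1309 and 238 UMIs. WT_UV lay somewhat below the control and RP_UV far below both, in the library where the monocyte and dendritic cell markers of the class were also lowest. The folds were 0.787 (0.705 to 0.88) for WT_UV over WT_Ctrl, 0.434 (0.376 to 0.499) for RP_UV over WT_UV and 0.342 (0.29 to 0.401) for RP_UV over WT_Ctrl. The thinned share of cells with a UMI was 11.1%, 8.61% and 4.59%. RP_UV was lowest in each cluster, at 13, 11.4, 42.9 and 17.2 in clusters 0, 1, 2 and 4, against 37.3, 42.7, 78.6 and 30.6 in WT_UV. The fold of RP_UV over WT_UV was 0.348 (0.259 to 0.459) in cluster 0 and 0.268 (0.186 to 0.376) in cluster 1. In cluster 4 RP_UV had 4 UMIs and its fold of 0.562 had an interval of 0.151 to 1.48, so no difference was detectable there at this depth. With cells thinned to 2000 UMIs the class fold was 0.512, just short of 2-fold.

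Lilra5 encodes an activating receptor of monocytes. It had few UMIs, at 5.39 (3.82 to 7.4), 2.23 (1.7 to 2.86) and 1.13 CPM (0.604 to 1.94) in macrophage-like cells, from 38, 61 and 13 UMIs. Both irradiated libraries were below the control, at 0.413 (0.271 to 0.637) and 0.21 times its level (0.103 to 0.403). In WT_Ctrl its highest cluster was cluster 2, at 23.2, against 6.02 in WT_UV and 2.54 in RP_UV. It is thus the activating receptor of the set that was lower after UVB, the reverse of Pira2, but at a level where a thinned share of 1.49%, 0.599% and 0.252% of cells had a UMI.

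Counted together, the members detected per macrophage-like cell at 2000 UMIs averaged 1.15 of 7 in WT_Ctrl, 1.6 in WT_UV and 1.36 in RP_UV. Cells with none made up 25.4%, 15.6% and 20.3%, and cells with at least 3 made up 6.74%, 19.6% and 13%. WT_UV had the highest share of cells with several receptors. These counts include Pira2, on whose higher level in WT_UV the set was picked, and no count without it was made. The order of the libraries is therefore a description only. Neutrophil transcripts in the macrophage-like class differed between the libraries: S100a8 was at 0.284, 2.81 and 19.4 CPM and S100a9 at 0, 2.41 and 26.9, while Retnlg was at 0.142, 0 and 0.785. Of the 6 neutrophil markers 4, 5 and 6 had UMIs, with a summed level of 132, 112 and 98.7. Mmp9 and Csf3r, which other myeloid cells also express, gave 94.8 and 36.6 of it in WT_Ctrl and 25.5 and 23.3 in RP_UV. Were S100a8 and S100a9 carried over from neutrophils, the matching amount of Pira2 in RP_UV would be 0.191% of its macrophage-like level, and of Pilra 1.64%, the highest of the 7. These amounts rest on those 2 markers, at 0.0931% of their neutrophil-like level in RP_UV, and are no upper bound. There Retnlg was at 0.0211% of its neutrophil-like level, Cxcr2 at 0.268%, Mmp9 at 2.86% and Csf3r at 2.96%. The part of neutrophil RNA in the receptor levels was not tested. Without cells holding an S100a8 or S100a9 UMI, the Pira2 fold of WT_UV over WT_Ctrl was 5.26.

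In dendritic-like cells (467, 441 and 176 cells) 2 of the 4 receptors that reached 20 CPM were at least 2-fold higher in WT_UV than in WT_Ctrl, beside 3.24% of 5059 genes. None was at least 2-fold lower, beside 1.38%, or 4.63% in either direction. Pira2 was at 54.1, 115 and 104 there, 2.13-fold (1.79 to 2.54) higher in WT_UV, from a control level above that of macrophage-like cells. Lilrb4a was at 78.5, 249.9 and 256, a fold of 3.18 (2.77 to 3.68), and unlike in macrophage-like cells RP_UV was level with WT_UV at 1.02 (0.896 to 1.16). Pirb was at 138, 176 and 181 and Sirpa at 218, 309.9 and 249.9. Pilra had 0 UMIs in WT_Ctrl, 94 in WT_UV and 58 in RP_UV, or 12 and 56.6 CPM. Against a floor of 3 counts in WT_Ctrl that was at least 11.1-fold higher in WT_UV and at least 52.7-fold higher in RP_UV. RP_UV was also 4.73-fold (3.35 to 6.63) above WT_UV, the 1 receptor past 2-fold there, beside 2.5% of 5113 genes at least 2-fold higher, 2.82% lower and 5.32% in either direction. Between RP_UV and WT_Ctrl, of the 5 receptors that averaged at least 20 CPM, Pilra and Lilrb4a were past 2-fold, both higher, beside 7.14% of 5044 genes higher, 5.71% lower and 12.8% in either direction. In both contrasts with RP_UV, Pilra averaged 20 CPM only through RP_UV, the library where it was high. Its place in these counts is therefore not read as a result. Lair1 was under that level, at 1.43, 10.1 and 7.81 CPM from 4, 79 and 8 UMIs. Its folds over WT_Ctrl were 7.02 (2.64 to 26.4) in WT_UV and 5.45 (1.46 to 24.7) in RP_UV. Neutrophil-like cells of RP_UV had Pilra at 321 CPM. The part of neutrophil RNA and of cell makeup in the dendritic-like folds of Pilra and Lair1 was not tested. In dendritic-like cells Pira2 made up 28.2%, 39.5% and 36.6% of the UMIs with Pirb, above the macrophage-like share in each library.

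**Figure D3:**
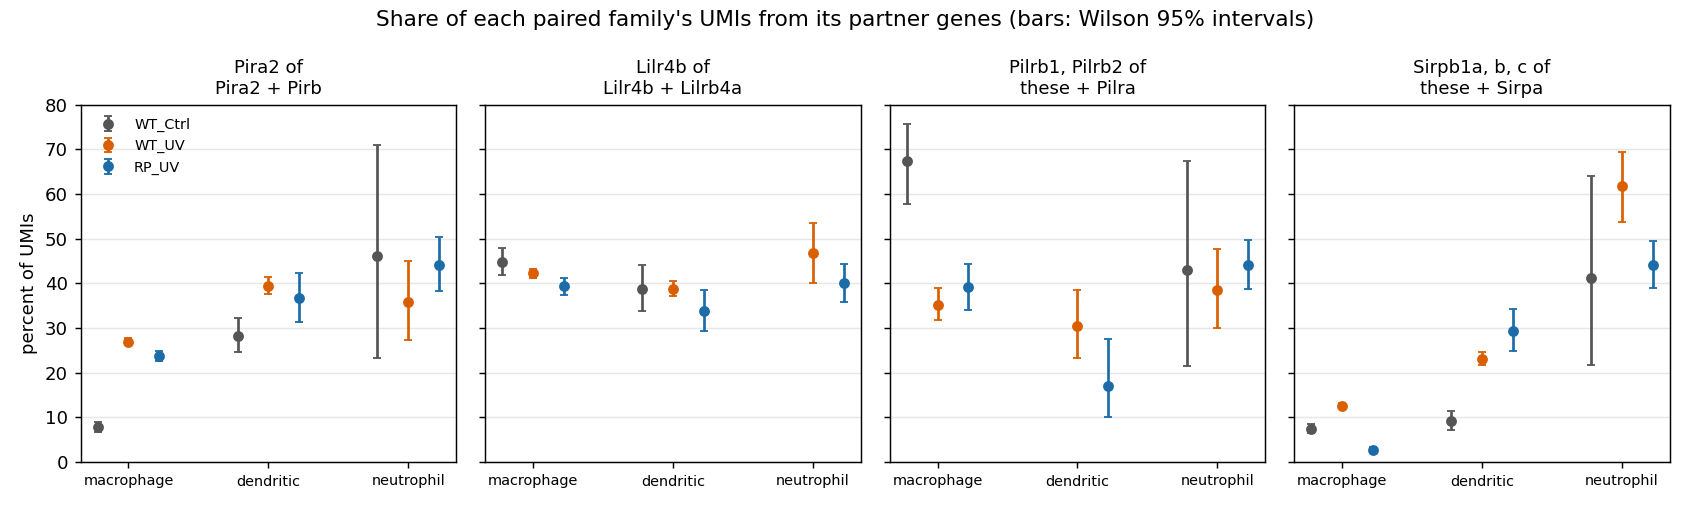
Share of the UMIs of each paired family that came from the partner genes named in the panel titles (y axis, percent, from 0) in 3 classes (x axis), 1 point per library with Wilson 95% intervals. In macrophage-like cells the Pira2 share was 7.79% in WT_Ctrl against 26.9% and 23.7% in the irradiated libraries, the Pilrb share went the other way from 67.3% to 35.2% and 39.1%, and the Sirpb1 share was lowest in RP_UV at 2.69%.

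Neutrophil-like cells numbered 15, 56 and 278, so the control values there rest on few UMIs. Pira2 was at 218, 206 and 205 CPM, with folds between libraries of 0.938 to 0.996 whose intervals all spanned 1. Pirb was at 255, 369 and 258 and Sirpa at 364, 295 and 358. Lilrb4a was at 182, 590.5 and 529.5, a fold of WT_UV over WT_Ctrl of 3.24 (1.35 to 10.2) from 112 against 5 UMIs. Pilra reached 291, 364 and 321, and Lilra5 had 0 UMIs in all 3 libraries. Neutrophil-like cells were thus the class with the highest Pira2 level in both irradiated libraries, and Pira2 made up 46.2%, 35.8% and 44.2% of its UMIs with Pirb there. A further cluster of 304 shallow cells led by neutrophil genes, 300 of them in RP_UV, stayed unnamed, and in those 300 cells Pira2 was at 155 and Pirb at 264.

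Across the other classes the receptors differed in reach. Pilra was at 257, 499.9 and 379 CPM in mast-like cells, the highest class for it in WT_UV, where its interval of 406 to 609 overlapped that of neutrophil-like cells (283 to 460.4). Lilrb4a in basophil-like cells was at 1239.5 in WT_UV and 1018 in RP_UV, from 13 and 5 cells. Sirpa was the main receptor of Langerhans-like cells, at 194, 166 and 152, where Pirb was at 36.4, 60.2 and 40.5 and Pira2 had 0, 1 and 3 UMIs. Type 1 dendritic-like cells had little Sirpa, at 18, 22.9 and 30, but Pirb at 83.3, 83 and 90. Fibroblast-like cells had Sirpa at 56.4 in WT_Ctrl and 49.9 in RP_UV, above the 11.7 and 10.8 of keratinocyte-like cells. For Pira2 in WT_UV, macrophage-like (118) and dendritic-like cells (115) did not differ beyond counting error, nor did mast-like (40.4) and type 1 dendritic-like cells (38.2).

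**Figure D4:**
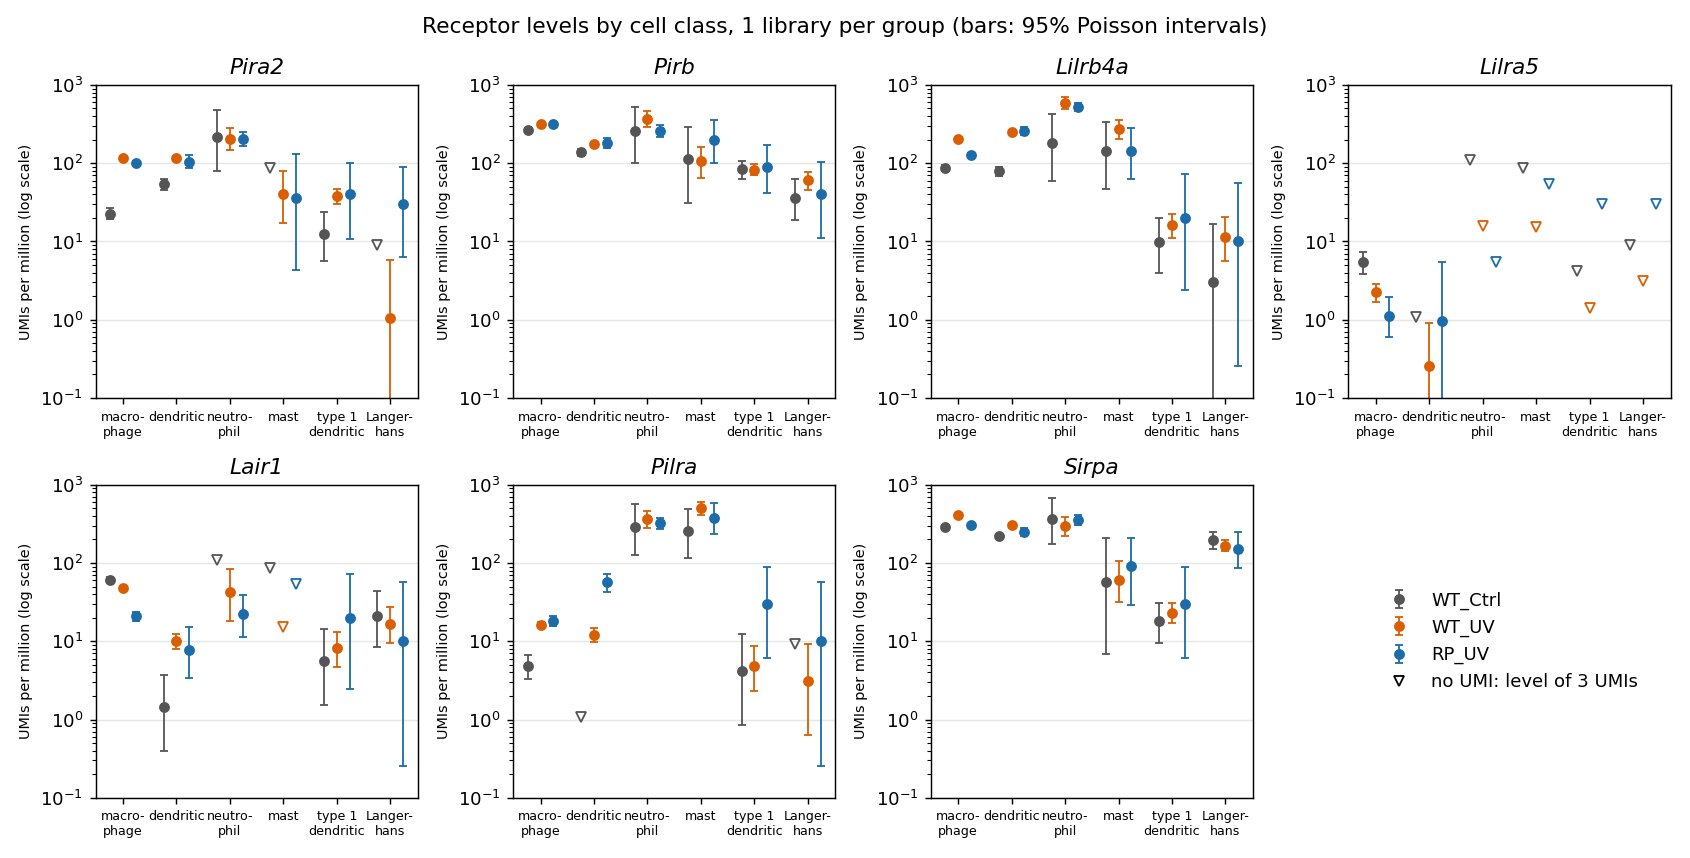
CPM (y axes, log scale) of the 7 receptors in 6 myeloid classes (x axis), 1 point per library with 95% Poisson intervals, and open triangles at the level of 3 UMIs where a library had none. Pira2 in neutrophil-like cells lay between 205 and 218 in all 3 libraries, while in macrophage-like cells WT_Ctrl at 22.7 was apart from 118 and 99.8.

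Over the 26 sums of a class in a library with at least 50 cells, the genes among 11696 whose level was most like that of Pira2 were Lilrb4a (Pearson r of log2 levels 0.954), Gm14548 (0.942), Emilin2 (0.931), Lilr4b (0.924) and Cd300ld (0.914). Those most like Pirb were Clec4a2 (0.951), Arl11 (0.949), Cd300c2 (0.941), Syk (0.940) and Nfam1 (0.936). The r between Pira2 and Pirb was 0.899. The sums share libraries, so these values describe the pattern and carry no p. Near-identical sequence can contribute to the r of Pira2 with Gm14548 and of Lilrb4a with Lilr4b, which was not tested.

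The receptors act through shared adaptors, kinases and phosphatases. Of 13 adaptor, kinase and phosphatase genes tested in macrophage-like cells, only Fgr, a Src family kinase, passed 2-fold in WT_UV over WT_Ctrl, at 2.15 (1.76 to 2.65), and in RP_UV it was at 0.403 times WT_UV (0.337 to 0.48). Fgr was at 15.2, 32.7 and 13.2 CPM, so it averaged 20 CPM only through WT_UV, the deeper library on another flow cell. Nothing is read from its place in the count. The median log2 fold of the 13 was 0.25 in the former contrast and -0.18 in the latter, beside 0.04 and 0.01 over all genes. Tyrobp was at 1615, 1499 and 1829 CPM and Fcer1g, which Pira2 needs at the surface, at 2239, 2157 and 3611, 1.67-fold (1.65 to 1.69) higher in RP_UV than in WT_UV. Ptpn6, the phosphatase recruited by ITIMs, was at 1.1-fold (1.02 to 1.18) in WT_UV over WT_Ctrl and 0.902-fold in RP_UV over WT_UV. Against WT_Ctrl, Tyrobp was at 0.928 times in WT_UV and 1.13 in RP_UV, and Fcer1g at 0.964 and 1.61. Whether adaptor levels go with Pira2 was not tested.

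In macrophage-like cells, of 11 ligand genes tested, none was at least 2-fold higher and 3 were lower in WT_UV than in WT_Ctrl. These were the collagen genes Col1a1, Col1a2 and Col3a1 at 0.463, 0.425 and 0.403 times WT_Ctrl. The median log2 fold of the 11 was -0.44, beside 0.04 over all genes. Over all 5725 genes tested, 2.93% were at least 2-fold higher and 0.926% lower. Col3a1, at 30.4 CPM in WT_Ctrl and 12.2 in WT_UV, averaged 20 CPM only through WT_Ctrl, where it was high. Its place in the count is therefore not read as a result. The values are UMIs within that class, not levels in the skin. Fibroblast-like cells numbered 311, 9 and 326, and whether their RNA carried into the class was not tested. Collagens are ligands of Lair1 and are made mainly by fibroblasts. The genes of its other ligand C1q, C1qa, C1qb and C1qc, were at 0.733, 0.746 and 0.737 times WT_Ctrl in WT_UV. In RP_UV they were higher, at 1.73, 1.82 and 1.62 times WT_UV and 1.27, 1.36 and 1.19 times WT_Ctrl. Between RP_UV and WT_UV 8 were tested, of which Fn1, encoding fibronectin, was at 0.405 times WT_UV (0.361 to 0.453). Between RP_UV and WT_Ctrl 4 of 11 were at least 2-fold lower, beside 3.38% of 5682 genes. These were Fn1 at 0.298, Col1a1 at 0.263, Col1a2 at 0.265 and Col3a1 at 0.488 times WT_Ctrl. The collagen genes averaged 20 CPM there only through WT_Ctrl, the library where they were high. Their place in this count is therefore not read as a result. Pianp, a Pilra ligand, was at 13.1, 11.4 and 3.49 CPM. Clec7a and Cd99 were not analysed here. Of 6 other inhibitory receptors tested, none passed 2-fold in WT_UV over WT_Ctrl or RP_UV over WT_UV, while Clec12a was at 0.401 times WT_Ctrl in RP_UV. Cd300lf, under the level needed for the list, had 4, 244 and 40 UMIs.

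Other ITAM-coupled receptors included several C-type lectins. Clec4n (dectin-2) was at 50.8, 216 and 193 CPM in macrophage-like cells, 4.24-fold (3.81 to 4.74) higher in WT_UV than in WT_Ctrl and the only 1 of 8 tested past 2-fold. Clec4d was at 3.98, 27.2 and 81.4 and was the only 1 of 10 past 2-fold in RP_UV over WT_UV, at 2.99 (2.72 to 3.3). Clec4e (Mincle) was at 1.7, 25.7 and 16.7, with 12 UMIs in WT_Ctrl. Trem2, a receptor for lipids, was at 65.6, 73.9 and 144, or 2.19-fold (1.97 to 2.43) higher in RP_UV than in WT_Ctrl. Of the 9 genes tested in that last contrast, 3 were at least 2-fold higher and none lower, beside 4.1% and 3.38% of 5682 genes. Clec4d, at 3.98 CPM in WT_Ctrl, averaged 20 CPM there only through RP_UV, the library where it was high. Its place in this count is therefore not read as a result. Like Pira2, Clec4n was thus higher in both irradiated libraries, at similar levels in each.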

How the data were processed

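Per the labels and the study's methods, CD45+ cells of dorsal skin were profiled with 10x 3′ chemistry, and the authors deposited filtered matrices that hold unnormalized UMI counts for each gene in each cell. Cell Ranger 6.1.1 is named in the file headers and build mm10 in the submitters' processing notes. No other file type was used.

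From the counts, cells with under 10% mitochondrial UMIs, over 200 genes and under 4000 genes (6000 in WT_UV, as in the study) were kept. They were clustered with Seurat 5.3.0 and sctransform 0.4.2 in R 4.3.3 (3000 integration features, 30 dimensions, resolution 0.8), and clusters of at least 100 cells were split again at resolution 0.5. The 7 receptors and all genes whose symbols start with their family names were left out of clustering, but 3 relatives listed as Gm14548, Gm15448 and Gm9733 stayed in. Of 139 clusters 98 were named from marker panels and 41 stayed unnamed. The naming thresholds were tightened after the clusters had been seen, and no cell type annotation by the authors was used. Doublets were not removed, since Scrublet marked between 0.0191% and 1.32% of cells, too few to rely on.

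UMIs were summed per library and class, and analysed with Python 3.11.15, scanpy 1.11.5, scipy 1.17.1 and numpy 2.4.6. Intervals are at 95% and cover counting error only. Zero counts were set to a floor of 3 counts per library for folds, which are then lower bounds. Between 5309 cells in WT_Ctrl and 6070 in RP_UV were kept, and the depth per library is given above. Groups came from the labels, with 1 library each, which leaves no replicate spread to test against. Named genes were the 7 receptors, their relatives by symbol, and fixed lists of signalling partners, ligands and other inhibitory or ITAM-coupled receptors, plus the 5 genes most like Pira2 and Pirb. Gm14548, Gm15448 and Gm9733 were added after their values were seen. The members and lists were chosen with earlier results of these data known. Alternatives covered the gene limit, doublet scores, integration, naming, thinning, scaling and cells left out. Sequences and locations came from RefSeq on GRCm38.p6.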

Additional observations from a re-analysis of the deposited data

Results flagged for a closer look

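Lair1 had opposite directions in 2 classes between RP_UV and WT_Ctrl. In macrophage-like cells RP_UV was at 0.342 times WT_Ctrl (0.29 to 0.401), and in dendritic-like cells at 5.45 times WT_Ctrl (1.46 to 24.7), the latter from 8 against 4 UMIs. Each fold was more than 1.5-fold away from 1, which is why it is listed. The difference between the classes was not tested, since each group was 1 library.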

How the results depend on the processing

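No paired analysis was possible because each group has 1 library. Over 12 alternatives, 206 log2 folds of single receptors moved by less than their counting interval and 46 moved by more, and none that was called changed direction. The Pira2 log2 fold of WT_UV over WT_Ctrl, 2.38 as reported, ranged from 1.86 with cluster 2 left out to 2.78 with cluster 4 left out, and was 1.98 with classes taken from marker UMIs in each cell. The number of receptors past 2-fold between RP_UV and WT_UV was 1 as reported and 2 with 4000 genes as the limit in every library, with every cluster named, without cells holding S100a8 or S100a9, with cells of 2000 UMIs or more, and without cluster 4. The added receptor was Lilra5, and the last 2 settings, like the removal of cluster 2, were chosen after seeing the data. Between WT_UV and WT_Ctrl the number was 3 or 4. The log2 fold of Lair1 between RP_UV and WT_UV was between -1.59 and -0.96. That of Pilra in the same contrast was between -0.35 and 0.71, and above 0 in 10 of 12. The class with the highest level of a receptor was the same in 95 cases and another in 10. Genes with few UMIs, such as Lilra5, are limited by depth, WT_UV was sequenced more deeply on another flow cell, and no result has a replicate.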

Other observations

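In unnamed cells the receptors were also present. In an unnamed sub-cluster of 111 WT_UV cells Pira2 was at 109 CPM, and in another of 117 RP_UV cells at 144. Over all barcodes in the matrices, with no filter on cells and no classes, the Pira2 level was 13.1 CPM without UVB, 74.1 in WT_UV and 49.2 in RP_UV. The share of macrophage-like cells among kept cells was 34.1%, 42.5% and 35.7% in the same order.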
